A study of Mus musculus with 14 samples.

Results

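The MYC, MAX and MXD network genes are a family of transcription factor genes, and the 10 genes examined here were chosen by name: Myc, Mycl, Mycn, Max, Mnt, Mxd1, Mxd3, Mxd4, Mxi1 and Mlx. All 10 were found among the 16124 genes of the deposited table. RNA-seq was performed on polyA RNA of mammary epithelial cells (MECs) from 7 littermate-matched pairs of nulliparous females aged 3.5 months. Each pair held 1 wild-type (WT) mouse and 1 Usp22 OE/OE mouse, and each mouse gave 1 library. OE/OE mice were homozygous for mouse Usp22 cDNA, carrying FLAG and MYC epitope tags, driven by the CAGGS promoter from the ROSA26 locus. The STOP cassette had been removed with ZP3-Cre, so that the transgene was expressed throughout the body from early development and not in epithelium alone. No allele or treatment is stated to be shared by the WT and OE/OE groups. The cells were organoids from the number 2, 3 and 4 glands, freed with collagenase and hyaluronidase, separated from stroma by brief centrifugation and brought to single cells with trypsin.

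Proteins of this network carry a basic helix-loop-helix leucine zipper and bind DNA as dimers. MYC, MYCL and MYCN pair with MAX and activate genes for growth and ribosome production, while MXD1, MXI1, MXD3, MXD4 and MNT pair with the same MAX and repress through SIN3 and histone deacetylases, so both sides compete for MAX and for the E-box CACGTG. MLX pairs with MNT and some MXD proteins and with the glucose-responsive factors MondoA and ChREBP. In the mammary gland MYC is known for its part in epithelial growth and in cancer, and MYC transcription is also one of the quick responses of cells to growth factors and handling. USP22 is the deubiquitinase of the SAGA coactivator complex, which MYC recruits.

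The binding word of the network was looked for in the promoters of its own genes. RefSeq promoter windows of GRCm38.p6, running from 250 bases before to 50 bases after the transcript start, were matched for 9 members with 11 windows. Myc had no entry. CACGTG, which reads the same on both strands, was present in the windows of 4 members, Max, Mnt, Mxd4 and Mlx, against 7.15% of all 32851 windows of the same length and 8.09% of all 27025 genes. None of these 4 genes passed the test between WT and OE/OE mice. The stretches around the matches are given 5′ to 3′ on the strand of the gene, with the E-box in capitals:
Max, chr12:76962229-76962288, minus strand: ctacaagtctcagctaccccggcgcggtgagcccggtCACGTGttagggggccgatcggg
Mnt, chr11:74830774-74830833, plus strand: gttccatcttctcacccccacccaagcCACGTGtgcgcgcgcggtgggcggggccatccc
Mxd4, chr5:34187897-34187956, minus strand: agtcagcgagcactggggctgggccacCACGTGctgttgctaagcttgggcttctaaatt
Mlx, chr11:101087223-101087282, plus strand: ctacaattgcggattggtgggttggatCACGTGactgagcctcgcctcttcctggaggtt
The first base of the E-box lay at position -3 from the transcript start in Max, -40 in Mlx, -123 in Mnt and -219 in Mxd4. The window of Mycl, the member whose level was lower in OE/OE mice, held no CACGTG. It held the TATA word TATAAA, searched on both strands and present in 13.6% of all windows. The first base of this word lay at position -8 from the transcript start. Of the 30 bases shown, 0 lay in GENCODE exons of Mycl, and whether the word works as a TATA box was not tested. The stretch is shown because Mycl was the only one of the 9 members with a window that held this word, with the TATA word in capitals:
Mycl, chr4:122995911-122995940, plus strand: cacgcgacgagaTATAAAgcagtcgggaaa
These matches describe letters in a window, and binding was not measured.

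Recovered depth ran from 20125106 to 41835978 fragments per library. Usp22 itself lay between 3500 and 5380 normalized counts in WT and between 74948 and 144288 in OE/OE mice, a log2 fold change of 4.65. The label of the cells was checked against epithelial markers, and all 9 pan-epithelial markers were in the table, with a summed level of 353142 to 583255 normalized counts in WT and 390439 to 678025 in OE/OE mice. Markers of fibroblasts, adipocytes, endothelium, macrophages and lymphocytes were also detected, and none of the listed marker genes in the table was at 0 in every library. In limma with the pair as a block, 5 of 9 adipocyte markers and 2 of 8 fibroblast markers were lower in OE/OE mice at an unadjusted p of 0.05, beside 1.85% of all genes. The 5 adipocyte markers called had low WT means, from 24.1 (Retn) to 205 (Cfd) normalized counts. The log2 fold change was below 0 for 7 of the 9 adipocyte markers and for each of the 8 fibroblast markers. It was also below 0 for each of the 8 endothelial and 8 macrophage markers, none of them called. Values above 0 were held by 8 of 9 pan-epithelial markers, 2 of 9 basal and 2 of 7 hormone-sensing luminal markers. The OE/OE mouse of pair 4 stood apart. Its score for 12 mitosis and S-phase genes, the mean log2 level over the list, was 10.1 against 4.68 in its WT littermate, and its endothelial score was 10.7 against 12.5. In bulk RNA of this kind, fewer cells of a type and less RNA per cell cannot be told apart.

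Levels in WT MECs were compared between genes as normalized counts per kilobase of exon, the union of the exons of each gene in GENCODE M21. Myc had the highest level of its network. Its lowest WT level was 3719, its median 4464 and its highest 5624 normalized counts per kilobase, and the median was 6.31 times that of Max and 28.1 times that of Mycl. Max, the shared partner, came next with a median of 708 and a range of 600 to 839. Then followed 5 genes close together, Mxd4 at 378, Mlx at 362, Mnt at 347, Mxd1 at 258 and Mxi1 at 232. Mycl had a median of 159 but the wide range of 119 to 342. The size of these gaps depends on the length chosen: Myc was 3.96 times Max per kilobase of the longest transcript and 1.68 times Max per kilobase of coding sequence, and 28.3 and 15.3 times Mycl. Myc was above Max in all 7 WT mice with each of the 3 lengths. Mycn at 13.7 and Mxd3 at 5.25 were lowest, and single libraries held as few as 27 fragments for Mycn and 4 for Mxd3.

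**Figure D1:**
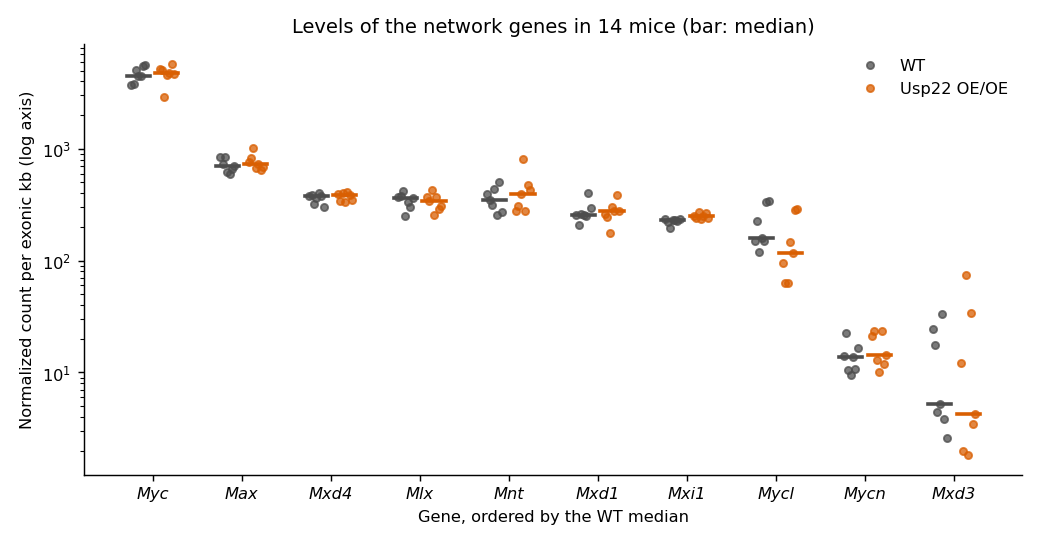
Normalized count per exonic kilobase (log axis) of the 10 network genes, ordered by the WT median, in 7 WT mice (grey points) and 7 Usp22 OE/OE mice (orange points), with a bar at each median. Myc sits between 3719 and 5624 in WT mice, above every other member, and Mycn and Mxd3 sit lowest.

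Neighbours in this order were compared within each of the 7 WT mice by an exact two-sided sign-flip permutation test on the log2 level per kilobase. Myc exceeded Max, Max exceeded Mxd4 and Mycl exceeded Mycn in all 7 mice (exact p = 0.0156 each, the smallest value that 7 mice allow, and 0.0469 after Benjamini-Hochberg adjustment over 9 comparisons). Mnt exceeded Mxd1 in 6 of 7 mice with a raw p of 0.0469, which became 0.105 after adjustment. The other 5 pairs of neighbours were not told apart, including Mlx and Mnt (p = 0.922, exact sign-flip permutation test), Mxi1 and Mycl (p = 0.312), and Mycn and Mxd3 (p = 0.281). The middle of the order moved with the length, as Mxd1 came 4th with either other length and Mlx came 5th with the longest transcript and 7th with coding length, while the 3 highest and the 3 lowest genes kept their ranks. In OE/OE mice, per kilobase of exon, Mnt ranked 3rd, Mxd4 4th and Mlx 5th, and the other 7 genes held the rank they had in WT mice.

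Taken per kilobase of exon, Myc made up 95.4% ± 1.5 (SD, n = 7) of the summed level of the 3 activator genes in WT mice and 96.6% ± 1.6 in OE/OE mice. The share of Mycl was 4.26% ± 1.40 in WT and 3.04% ± 1.69 in OE/OE mice, and it was lower in OE/OE mice in 6 of 7 pairs. Mycn supplied 0.297% ± 0.130 in WT and 0.354% ± 0.119 in OE/OE mice. In WT mice the summed level of the activators was 3.98 ± 0.81 times that of the 5 repressors, and in OE/OE mice 3.67 ± 0.84 times. Within pairs this ratio differed by -0.31 ± 1.40 (SD, n = 7 pairs) and was higher in the OE/OE mouse in 3 of 7 pairs. This ratio rests on the length chosen, and per kilobase of coding sequence it was 0.967 ± 0.183 in WT and 0.904 ± 0.167 in OE/OE mice. Which side is higher therefore depends on the length. Myc was 6.64 ± 1.47 times Max in WT and 6.38 ± 1.79 times Max in OE/OE mice. The lowest Myc to Max ratio, 2.85, belonged to the OE/OE mouse of pair 4.

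The next comparison asked whether the members changed when Usp22 was overexpressed. In limma with the littermate pair as a block, 1 of the 10 members (Mycl, lower) passed the threshold of 0.05 on the unadjusted p, where 3.81% of all 16124 genes passed in either direction and 1.85% passed as lower. A single call among 10 genes is too few to set against that share. With Benjamini-Hochberg adjustment over all genes no member passed (adjusted p of 0.9997 for each, limma), and 0.0124% of all genes did. At the unadjusted threshold edgeR and DESeq2 also called 1 member, Mycl, with 3.7% and 3.88% of all genes, and limma without the block called none, with 1.13%. The median log2 fold change of the 10 members was 0.03, against -0.0015 over all genes. Changes had the same direction in all 7 pairs for 2 members, Mycl lower and Mxi1 higher, against 1.51% of all genes in either direction, 0.62% lower and 0.887% higher. The WT and OE/OE values overlapped for every member, and 0.0434% of all genes had no overlap.

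**Figure D2:**
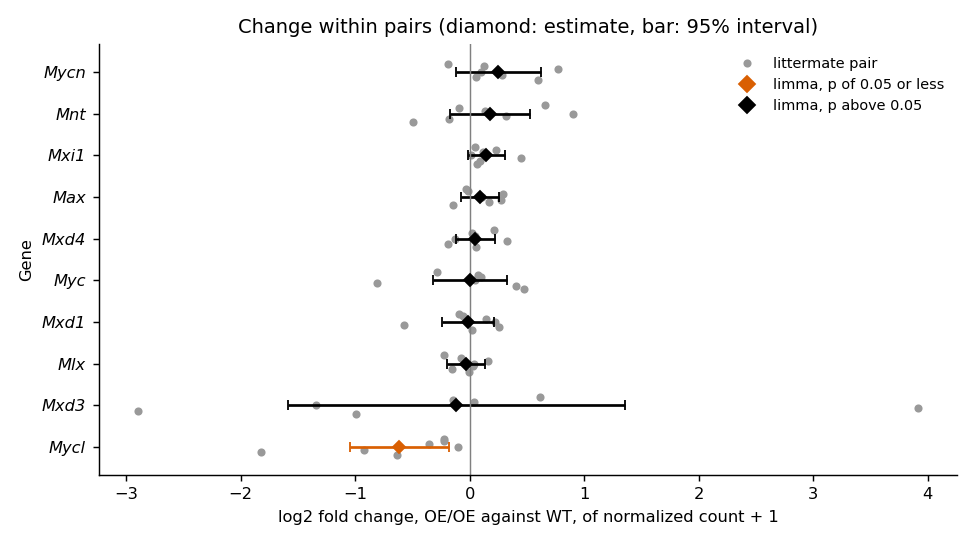
Log2 fold change, OE/OE against WT, of normalized count + 1 for each network gene, with the limma estimate (diamond), its 95% interval (bar) and the 7 littermate pairs (grey points). Mycl, in orange, lies at -0.61 with an interval from -1.05 to -0.18, and the intervals of the other 9 members include 0.

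Among the activators, Mycl (L-MYC, chr4:122995652-123002485, plus strand) is best known from small-cell lung cancer and has a shorter activation region than MYC. In the WT mice of pairs 1, 3, 4, 5, 6, 7 and 8 its normalized counts were 601, 911, 482, 641, 603, 1351 and 1382. In their OE/OE littermates, in the same order, they were 387, 256, 253, 599, 471, 1154 and 1181. Every OE/OE mouse was below its own littermate, and 4 OE/OE mice were below every WT mouse, while the mice of pairs 7 and 8 were high in both genotypes. The OE/OE level ran from 28.1% of the littermate level in pair 3 to 93.4% in pair 5. The mean was 853 ± 374 in WT and 614 ± 396 in OE/OE mice (SD, n = 7 each). The log2 fold change was -0.61 (SE 0.19, limma p = 0.0106, exact sign-flip permutation p = 0.0156), and it passed the unadjusted threshold in limma, edgeR and DESeq2.

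The size of the Mycl difference rested in part on pair 3, without which the log2 fold change was -0.41 and still past the limma threshold. Without the block the same difference of -0.61 did not pass, and the highest mouse was 2.87 times the lowest in WT and 4.66 times in OE/OE mice. Markers of other cell types moved over the same mice. The summed level of 8 fibroblast markers was 88952 to 179558 normalized counts in WT and 57515 to 133061 in OE/OE mice. That of 9 adipocyte markers was 13619 to 34361 in WT and 10062 to 31165 in OE/OE mice, with medians of 19051 and 18234. Fabp4, which was not called, made up most of the adipocyte sum, with a WT mean of 17495 normalized counts. The scores used as covariates are means of log2 levels, where each marker counts alike. With the fibroblast score as a covariate the Mycl log2 fold change was -0.49, and with the adipocyte score it was -0.52, and neither passed the limma threshold. With the hormone-sensing luminal score it was smaller still, -0.46, and passed. That score differed by -0.56 in pair 4 and -0.39 in pair 3. With the luminal progenitor score Mycl was at -0.70 and with the basal score at -0.61, both past the threshold. The part of any of these cells in the Mycl difference was not tested beyond these fits.

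The change in Mycl was then set against that of each other member within pairs, with the exact two-sided sign-flip permutation test. Mycl was picked for this after its values were seen, so these 9 tests describe the gap and are not independent support for it. The mean difference from Myc was -0.62 ± 0.81 on the log2 scale (SD, n = 7 pairs, adjusted p = 0.0352 by the exact test) and that from Mycn was -0.86 ± 0.68 (adjusted p = 0.0234, exact test). In 8 of 9 tests the adjusted p was 0.05 or less. The exception was Mxd3, with a difference of -0.50 ± 2.06 (p = 0.75, exact test).

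Myc (chr15:61985391-61990374, plus strand) encodes the network's main activator, and its mean level hardly differed between genotypes. In the WT mice of pairs 1, 3, 4, 5, 6, 7 and 8 its normalized counts were 10105, 10329, 13664, 12090, 12129, 14887 and 15280. In their OE/OE littermates they were 14019, 13697, 7819, 12473, 12959, 15711 and 12566. The groups overlapped fully apart from the OE/OE mouse of pair 4, which was lowest of all 14, and 1 further OE/OE mouse above the WT range. Means were 12641 ± 2058 in WT and 12749 ± 2441 in OE/OE mice. The log2 fold change was 0.00 with a 95% interval from -0.32 to 0.33 (limma p = 0.992, exact sign-flip p = 1). Changes within these bounds were therefore not excluded with 7 pairs. Within pairs the difference ran from -0.81 in pair 4 to 0.47 in pair 1. Without pair 4 the log2 fold change was 0.14 and did not pass the limma threshold, while with the adipocyte score as a covariate it was 0.36 and passed.

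Mycn (chr12:12936093-12941914, minus strand) encodes N-MYC, the activator of embryonic and neural tissue. Its normalized counts ran from 31.1 to 74.1 in WT and from 33.4 to 77.9 in OE/OE mice, almost the same range. It was higher in the OE/OE mouse in 6 of 7 pairs, with a log2 fold change of 0.25 (SE 0.16, 95% interval -0.12 to 0.62, limma p = 0.160, exact sign-flip p = 0.0938).

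**Figure D3:**
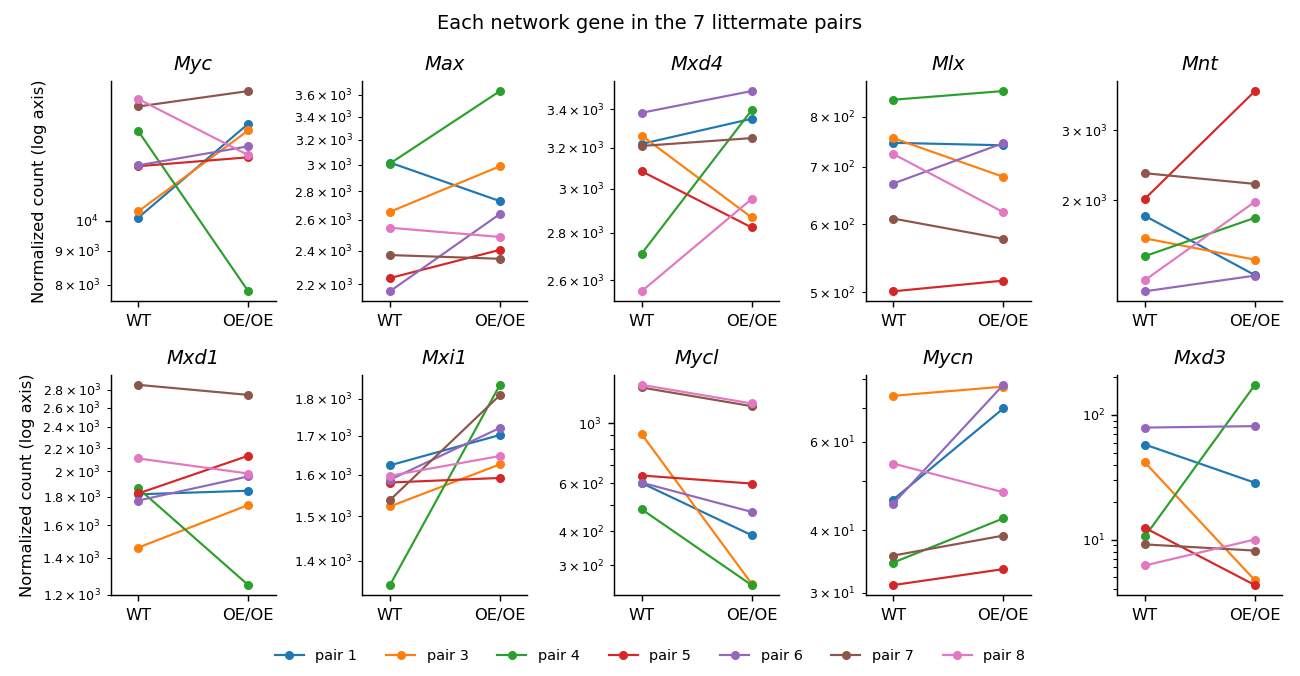
Normalized count (log axis, scaled separately for each gene) of each network gene in the WT and OE/OE mouse of the 7 littermate pairs, with 1 coloured line per pair. All 7 Mycl lines end lower, all 7 Mxi1 lines end higher, and pair 4 (green) departs from the other pairs for Myc, Mxd1 and Mxd3.

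Of the dimer partners, Max (chr12:76937269-76962201, minus strand) ran from 2159 to 3017 normalized counts in WT and from 2349 to 3634 in OE/OE mice. Its highest value belonged to the OE/OE mouse of pair 4, and the other 6 OE/OE mice were inside the WT range. The log2 fold change was 0.09 (95% interval -0.07 to 0.26, limma p = 0.235, exact sign-flip p = 0.219). Mlx (chr11:101087277-101092207, plus strand) ran from 501 to 838 in WT and from 516 to 857 in OE/OE mice, with a log2 fold change of -0.03 (95% interval -0.20 to 0.14, limma p = 0.669, exact sign-flip p = 0.5). The intervals of these partners exclude changes as large as that estimated for Mycl. Exons of Mlx share 385 bases, 19.3% of their length, with Psmc3ip on the opposite strand. Exons of Mxd4 (514 bases, 6.06%), Mxd3 (105 bases, 4.43%) and Mxi1 (194 bases, 2.84%) also overlap exons of opposite-strand genes. The strand setting of the counting is not given in the sources used here.

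Among the repressors, Mxi1 (MXD2, chr19:53310518-53375810, plus strand) had the steadiest level and the most even direction. In the WT mice of pairs 1, 3, 4, 5, 6, 7 and 8 its normalized counts were 1624, 1523, 1348, 1581, 1588, 1538 and 1597. The OE/OE littermates held 1702, 1626, 1840, 1592, 1721, 1810 and 1647. Every OE/OE mouse was above its own littermate and 1 of the 7 lay inside the WT range. The mean was 1543 ± 92 in WT and 1705 ± 93 in OE/OE mice, and the log2 fold change of 0.15 did not pass the limma threshold (SE 0.07, 95% interval -0.02 to 0.31, limma p = 0.0712, exact sign-flip permutation p = 0.0156, the smallest that test can give). It passed the limma threshold with the immediate-early or proliferation score as a covariate and with median centring. Pair 4 had the largest of the 7 differences, 0.45, and without it the log2 fold change was 0.095.

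Mnt (chr11:74830920-74845725, plus strand) encodes the most widely expressed MYC antagonist. It ran from 1180 to 2342 normalized counts in WT and from 1293 to 3771 in OE/OE mice, and the pairs disagreed, from -0.50 in pair 1 to 0.90 in pair 5. Its log2 fold change was 0.18 (95% interval -0.17 to 0.53, limma p = 0.284, exact sign-flip p = 0.375), with 0.057 without pair 5 and 0.29 without pair 1. Mxd1 (MAD1, chr6:86647042-86669161, minus strand) is known to rise as cells leave the cycle and differentiate. It ran from 1459 to 2856 in WT and from 1250 to 2740 in OE/OE mice, with a log2 fold change of -0.01 (95% interval -0.24 to 0.21, limma p = 0.909, exact sign-flip p = 0.938). Its lowest value and its lowest difference within a pair, -0.58, both belonged to pair 4. Mxd4 (MAD4, chr5:34173883-34187720, minus strand) ran from 2554 to 3382 in WT and from 2824 to 3499 in OE/OE mice, with a log2 fold change of 0.05 (95% interval -0.12 to 0.22, limma p = 0.529, exact sign-flip p = 0.484).

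Mxd3 (MAD3, chr13:55325168-55329823, minus strand) differs from its relatives in being expressed in dividing cells during S phase, and it was the least even member. Its normalized counts in the WT mice of pairs 1, 3, 4, 5, 6, 7 and 8 were 57.9, 41.6, 10.6, 12.4, 79.3, 9.15 and 6.20. In the OE/OE littermates they were 28.6, 4.71, 175, 4.31, 81.4, 8.16 and 10.0. The ratio of the highest to the lowest mouse was 12.8 in WT and 40.5 in OE/OE mice, where the next highest ratio of a member was 4.66. Within pairs the difference ran from -2.90 in pair 3 to 3.92 in pair 4, and the log2 fold change of -0.12 had a 95% interval from -1.59 to 1.36 (limma p = 0.864, exact sign-flip p = 0.875). Without pair 4 it was -0.79 and did not pass the limma threshold.

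The genes whose levels followed each member most closely were found by Pearson r over the 14 libraries after the mean of each pair was taken out. These 14 values come from 7 within-pair differences, and the genes were picked for the likeness, so r is given as a description. Mxd3 followed Kif14, a kinesin of cytokinesis (r = 0.994), Hmmr, a spindle protein (r = 0.983), and Shcbp1 (r = 0.981). In pair 4 Kif14 went from 8.84 to 222 normalized counts and Hmmr from 15.0 to 503 between the WT and the OE/OE mouse, and in pair 3 they went from 73.2 to 9.42 and from 90.7 to 11.3. The score of the 12 mitosis and S-phase genes differed by 5.46 in pair 4 and by -2.41 in pair 3 on the log2 scale, the highest and the lowest of the 7 pairs, as for Mxd3.

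Myc followed Cdkn1a, which encodes the cell cycle inhibitor p21 (r = 0.996), Gdf15, a stress-induced hormone (r = 0.980), and Pgrmc1, a membrane heme-binding protein (r = 0.973). Cdkn1a and Myc changed in the same direction in all 7 pairs, and without pair 4 r was 0.992. In pair 4 Cdkn1a went from 20895 to 10373 normalized counts and in pair 1 it went from 13998 to 21176. Cdkn1a is known as a gene that MYC represses, and here both moved up and down together. The score of 10 immediate-early genes, which rise when tissue is dissociated, differed by -1.11 in pair 4 and by 0.74 in pair 1. These were the lowest and the highest of the 7 pairs, and also the extremes for Myc. Pair 4 was likewise lowest and pair 1 highest for the endothelial (-1.73 and 0.92), fibroblast (-0.84 and 0.59) and adipocyte scores (-2.16 and 0.61). In pair 5 the immediate-early score differed by 0.51 and Myc by 0.04. In pair 3 the score differed by 0.12 and Myc by 0.41.

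**Figure D4:**
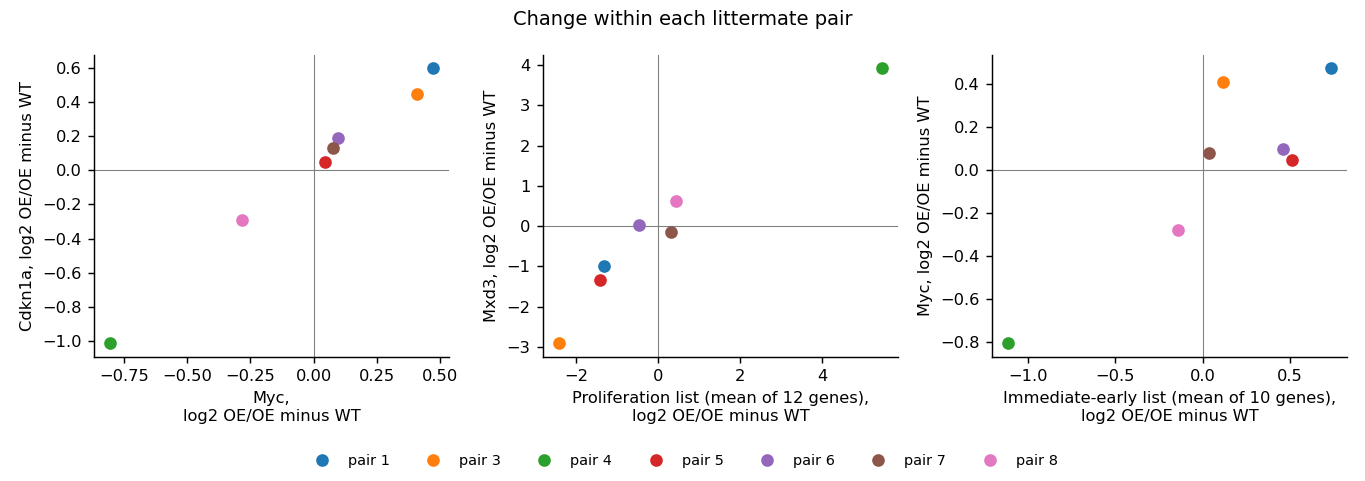
Log2 difference, OE/OE minus WT, in each of the 7 littermate pairs (coloured points) for Cdkn1a against Myc, for Mxd3 against the mean of 12 proliferation genes, and for Myc against the mean of 10 immediate-early genes. Pair 4 (green) lies at -0.81 for Myc, -1.01 for Cdkn1a and 3.92 for Mxd3.

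Mycl followed C87436 (r = 0.956), Trim35 (r = 0.947) and Fgf23 (r = 0.946). Trim35 was lower in the OE/OE mouse in the same 7 pairs as Mycl, with a log2 fold change of -0.11 that did not pass the limma threshold. Fgf23, a hormone of phosphate balance, went from 68.3 to 13.2 normalized counts in pair 3 and from 56.6 to 14.4 in pair 4, and its log2 fold change was -0.87, past the unadjusted limma threshold (adjusted p of 0.9997). Mnt followed Bcl9, Ncoa6 and Arid2, which encode a coactivator of beta-catenin, a nuclear receptor coactivator and a chromatin remodelling subunit (r = 0.995, 0.991 and 0.980). Mxd1 followed Sh3bp4, Sstr1 and Dnajc3 (r = 0.988, 0.976 and 0.973), and Max followed Naa50, Stau2 and Pkp2 (r = 0.975, 0.972 and 0.972). Mxd4 followed Dus3l, Abhd4 and Map2k7 (r = 0.974, 0.950 and 0.943), and Mxi1 followed Ttc23, Fyttd1 and Fgd6 (r = 0.969, 0.944 and 0.938). For Mxi1 and Fgd6, r without pair 4 was 0.774. Mycn followed Pdcd7, Irak1bp1 and Lrig3 (r = 0.936, 0.920 and 0.883), and Mlx followed Gm12191, Zscan21 and Ttc32 (r = 0.925, 0.892 and 0.885). No member was among the 3 genes closest to another member.

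Genes around the network were read from lists, beside the 1.95% of all genes called higher and the 1.85% called lower. Of the 3 further partner genes, Mga, Mlxip and Mlxipl, 1 was called, Mlxip, which rose, while Mga was at 0.04 and Mlxipl at -0.03 on the log2 scale. Mlxip encodes MondoA, the MLX partner that enters the nucleus when glucose is high. It went from 4769 ± 1533 to 5486 ± 1808 normalized counts, a log2 fold change of 0.20 (limma p = 0.0314, exact sign-flip p = 0.0625), and was higher in 5 of 7 pairs. None of the 10 corepressor genes was called, with log2 fold changes from -0.06 to 0.14 and a median of 0.03. None of the 12 genes for MYC cofactors was called, with a median of 0.06 and a range from -0.01 to 0.15.

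Of 14 genes that set the turnover of MYC proteins, 2 rose and 1 fell. Fbxo32, an F-box protein of a ubiquitin ligase, rose from 2444 ± 528 to 3533 ± 1043 normalized counts (log2 fold change 0.48, limma p = 0.0173, exact sign-flip p = 0.0781) in 6 of 7 pairs, with pair 4 opposite at -0.48. Usp28, a deubiquitinase that removes ubiquitin placed by FBXW7, rose from 303 ± 76 to 363 ± 73 (log2 fold change 0.27, limma p = 0.0292, exact sign-flip p = 0.0156) in all 7 pairs. Aurka, a mitotic kinase that protects N-MYC, fell from 542 ± 173 to 418 ± 145 (log2 fold change -0.39, limma p = 0.00869, exact sign-flip p = 0.0469) in 6 of 7 pairs. Aurka fell by 0.27 in pair 4, where the proliferation score was raised. The remaining 11 genes were not called, among them Fbxw7, the main ubiquitin ligase of MYC, at 0.09 (limma p = 0.263, exact sign-flip p = 0.234). The adjusted p was 0.9997 for every gene named from these lists and from the target lists.

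None of 36 genes commonly activated by MYC, mainly for ribosome production, nucleotide and polyamine synthesis, was called. Their log2 fold changes ran from -0.06 for Srm to 0.25 for Hspd1 (limma p = 0.0663, exact sign-flip p = 0.0938), with a median of 0.04, and 25 of 36 were positive. The score over these 36 genes was highest in the OE/OE mouse of pair 4, at 12.1, where Myc was lowest. It was above the WT littermate in 2 pairs, by 0.48 in pair 4 and 0.26 in pair 3, and below it in 5, by -0.33 in pair 1 and by between -0.034 and -0.0015 in pairs 5, 6, 7 and 8. Of 10 genes that MYC commonly represses 1 was called, Cebpa, a differentiation factor, which rose from 1660 ± 380 to 2077 ± 704 normalized counts (log2 fold change 0.30, limma p = 0.0329, exact sign-flip p = 0.0469). Cdkn1a, in the same list, had a log2 fold change of 0.02 (limma p = 0.931, exact sign-flip p = 0.953).

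Of 5 measured targets of MLX with MondoA or ChREBP, 1 fell and 1 rose. Txnip, which restrains glucose uptake and is the best known MondoA target, fell from 23089 ± 4321 to 18876 ± 5430 normalized counts (log2 fold change -0.32, limma p = 0.0159, exact sign-flip p = 0.0312), lower in 6 of 7 pairs. Acly, which makes cytosolic acetyl-CoA from citrate, rose from 8061 ± 743 to 9172 ± 570 (log2 fold change 0.19, limma p = 0.0265, exact sign-flip p = 0.0312), higher in 6 of 7 pairs. Arrdc4, the other MondoA target of the list, had a value of -0.27 (limma p = 0.112, exact sign-flip p = 0.219).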

How the data were processed

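RNA-seq libraries (Illumina TruSeq mRNA, paired-end reads of 75 bases) were made from MECs of 7 WT and 7 Usp22 OE/OE females. The authors mapped reads to mm10 with TopHat2 2.0.10, counted fragments per GENCODE M21 gene with HTSeq 0.6.0 and scaled them by DESeq 1.18.0 size factors, after a filter that required 10 fragments or more in 7 or more libraries. The deposited signal is therefore a normalized count, with no samples pooled.

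Dividing each library's deposited values by the step of 1 fragment returned whole numbers for 100% of them (tolerance 0.01), which gave a depth of 20125106 to 41835978 fragments. All 16124 identifiers matched GENCODE M21 of GRCm38, the source of positions and exon lengths.

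All genes were fitted together in limma 3.58.1 (R 4.3.3, moderated with an intensity trend) on log2(normalized count + 1), a scale that understates changes of low genes. The littermate pair, numbered in the labels, was the block, and the threshold was an unadjusted p of 0.05, both as in the study, with Benjamini-Hochberg values over all genes beside it. Deviations from the group means correlated within every pair (median r 0.522, lowest 0.171). The 42 other combinations had a median of -0.151 and a highest r of 0.634, so the ranges overlapped. Single values were tested by exact two-sided sign flips over 7 pairs or mice (128 patterns). edgeR 4.0.16 and DESeq2 1.42.0 were run on the recovered fragments. The limma fit with the block was tried on counts simulated without pair effects, so the use of the block was not tested. The other fits and the sign-flip test were not tried on simulated counts.

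The members and lists were chosen with earlier results of these data known. Genes named were the members, Usp22, genes of the network lists past the threshold, and the 3 genes most like each member with a mean of at least 50 normalized counts. Fbxw7, Srm, Hspd1, Arrdc4, Mga, Mlxipl, Psmc3ip, Fabp4, Retn, Cfd, Cldn7 and Aldh1a3 were added outside this rule once their values were known. The settings varied were the pseudocount, a minimum mean, the trend, the block, the count tests, scaling, marker scores, gene length and each pair left out. The luminal, basal and fibroblast scores as covariates, and the ratios of levels with other lengths, were chosen after seeing the data. All columns of the table belonged to the 14 libraries.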

Additional observations from a re-analysis of the deposited data

Results flagged for a closer look

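Each member was examined in the 7 WT and in the 7 OE/OE mice, 20 groups of values in all, for a mouse that lay far from the others. The measure was the gap to the nearest other mouse as a share of the range of the group, both on log2(normalized count + 1). It was set against the 95% critical value of Dixon for 7 mice, and chance alone would flag about 1 group in 20. Of the groups 2 passed, both in pair 4. Myc in the OE/OE mouse of pair 4 was 7819 normalized counts, with the nearest OE/OE mouse at 12473 and a gap share of 0.669. Mxi1 in the WT mouse of pair 4 was 1348 normalized counts, with the nearest WT mouse at 1523 and a gap share of 0.656. The proliferation score of the WT mouse of pair 4, 4.68, was the lowest and that of its OE/OE littermate, 10.1, the highest of the 14 mice, and the part of this in either value was not tested.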

How the results depend on the processing

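Mycl was lower in OE/OE mice under all 23 alternatives (-0.70 to -0.41) and passed the unadjusted threshold in 20. The exceptions were the adipocyte score (-0.52), the fibroblast score (-0.49) and no block (-0.61). Leaving out 1 pair at a time gave -0.70 to -0.41, all past the threshold. The number of members called was 0 without the block or with the fibroblast score, and 2 (Mycl and Mxi1) with the immediate-early or proliferation score or median centring. With the adipocyte score it was 1, Myc (0.36) and not Mycl. Mxi1 was called at 0.16 with the immediate-early score, 0.16 with median centring and 0.14 with the proliferation score.

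Without the block on pairs 182 of all genes were called in place of 614, and 2707 with the adipocyte score, 1785 with the immediate-early, 1357 with the luminal hormone, 991 with the proliferation and 402 with the fibroblast score. Leaving out 1 pair gave 381 (pair 6) to 1366 (pair 4), with 1196 without pair 1.

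Several uncalled members changed sign without a call, and the cause was not tested. With the adipocyte score Max was -0.020, Mnt -0.062, Mxd1 0.15 and Mxd4 -0.038, and with the fibroblast score Max was -0.0060. Mxd1 was 0.057 with the luminal hormone score, 0.023 with the luminal progenitor score and 0.0072 with median centring, and ran from -0.056 to 0.082 when 1 pair was left out. Myc was -0.030 with the basal score, -0.053 with the immediate-early score and -0.050 with quantile normalization, and ran from -0.077 to 0.14 when 1 pair was left out. Mxd3 was 0.12 with the immediate-early score and 0.022 with a pseudocount of 10, ran from -0.79 to 0.35 when 1 pair was left out, and had no value under the minimum mean of 50. Mnt, 0.18 as reported, ran from 0.057 without pair 5 to 0.29 without pair 1.

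The count of neighbouring WT levels told apart at an unadjusted p was 4 (3 after adjustment), 4 with the longest transcript, 5 with coding length and 3 to 4 without 1 WT mouse, while the order of the middle ranks changed with the length. Single libraries held as few as 4 fragments for Mxd3 and 27 for Mycn.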
